A study of Homo sapiens with 9 samples.

Results

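The Arp2/3 complex subunits are described here in 9 expression arrays of A549 cells, an established human line from a lung adenocarcinoma. They were chosen by name: every row of the array table whose only gene symbol was ARPC1A, ARPC1B, ARPC2, ARPC3, ARPC4, ARPC5, ARPC5L, ACTR2, ACTR3 or ACTR3B. Of these 10 genes, 9 had such a row among 22411 genes, and ACTR2 (Arp2) had none and was not analysed here. All 9 lay above the level filter and were tested with 15964 genes in all. The family was singled out because ARPC1A is among the transcripts lowest in si-UQCRC2 cells relative to control, so the values of si-UQCRC2 cells are given as a description, without a p-value. The comparison of si-FAM210B cells with control was not used in that choice, although it shares the control arrays.

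The groups are cells given siRNA against UQCRC2, a core subunit of respiratory complex III, cells given siRNA against FAM210B, a mitochondrial membrane protein, and cells given a negative control siRNA, with 3 arrays each. All 3 groups were transfected and collected after 72 h, and the siRNAs were mixtures per the series' design text. The titles number the samples of a group as biological replicates, and neither they nor the protocols say whether each came from its own culture, so part of the spread behind a p-value may be technical. Values are log2 signals made by the authors with RMA, on which a difference of 1 is a doubling of signal, and levels of different genes are not set against each other because each row has its own probes.

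UQCRC2 RNA averaged 8.36 in si-UQCRC2 cells against 9.83 in control cells, with no overlap. In si-FAM210B replicates 1 to 3 UQCRC2 read 9.25, 9.83 and 9.82, against 9.7 to 9.96 in control cells, so replicate 1 lay below every control array. FAM210B RNA was not called between si-FAM210B and control cells (-0.17 ± 0.09, SE, limma adjusted p = 0.239). It read 6.48, 6.10 and 6.22 in the arrays labelled si-FAM210B replicates 1 to 3, against 6.39 to 6.48 in control cells, so the array labelled si-FAM210B replicate 1 was at the control level of its own target. That array and control replicate 3 also stood apart from their groups over all genes, and their deviations correlated across genes (r = 0.742). Values of the subunits and of the called actin genes without both arrays are therefore given too. The median SD within a group over all tested genes was 0.0379 in si-UQCRC2, 0.13 in si-FAM210B and 0.0878 in control cells. All 9 epithelial and A549 markers read above the level filter, with mean levels per array of 9.74 to 9.80 in si-UQCRC2, 9.33 to 9.48 in si-FAM210B and 9.61 to 9.67 in control cells. The filter is the median of all rows and not a limit of detection. Among them the adhesion protein CDH1 fell by 1.09 in si-FAM210B relative to control cells (limma adjusted p = 1.82e-05), and AKR1C1 by 0.36 (limma adjusted p = 0.0423). The keratin KRT19 was higher by 0.73 and EPCAM by 0.24 in si-UQCRC2 cells. These were the markers of this list called against control. KRT19 was also above control in si-FAM210B cells, by 0.24, and not called (limma adjusted p = 0.0658). The part of these markers in the subunit results was not tested. Of 10 markers of immune, endothelial, stromal and red cells with a row, 6 passed the filter. The mean of all 10 was 4.21 to 4.24 in si-UQCRC2, 4.25 to 4.45 in si-FAM210B and 4.18 to 4.28 in control cells, beside a median of 4.2 to 4.4 over all rows of an array. The rows with the lowest and the highest signal of the 10 are named here, which does not compare amounts of RNA. PTPRC, the pan-leukocyte marker, was the lowest and read 2.42 to 2.58 over all 9 arrays. The highest was the collagen gene COL1A1, which averaged 6.35 in si-UQCRC2, 6.75 in si-FAM210B and 6.44 in control cells. COL1A1 was called between the siRNAs (si-UQCRC2 minus si-FAM210B -0.40 ± 0.09, SE) and not in si-FAM210B against control cells (0.31 ± 0.09, limma adjusted p = 0.0633), and its part in the subunit results was not tested.

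The Arp2/3 complex starts new actin filaments as branches on the side of existing ones and drives the sheet-like protrusions, endocytic coats and vesicle movements of epithelial cells. Its actin-related subunits, Arp2 (ACTR2) and Arp3 (ACTR3), imitate the first units of a new filament, and the ARPC subunits hold them and clamp the mother filament. The complex is inactive until proteins of the WASP and WAVE families bind it. Human cells have alternative copies of 3 subunits, ARPC1A or ARPC1B, ARPC5 or ARPC5L, and ACTR3 or ACTR3B, and the copy that is built in is known to alter how active a complex is and how long its branches last.

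ARPC1A was the subunit with the lowest values in si-UQCRC2 cells relative to control, and none of its partners differed as much. ARPC1A encodes a beta-propeller subunit that contacts the activating proteins. Its signal was 8.55, 8.59 and 8.48 in si-UQCRC2 replicates 1 to 3, 9.24, 9.59 and 9.59 in si-FAM210B replicates, and 9.23, 9.30 and 9.23 in control replicates. The 3 si-UQCRC2 arrays all lay below the other 6, whereas the si-FAM210B and control arrays overlapped. The group means were 8.54 ± 0.06 in si-UQCRC2, 9.47 ± 0.21 in si-FAM210B and 9.25 ± 0.04 in control cells (SD, n = 3). ARPC1A in si-UQCRC2 cells differed from control by -0.71 ± 0.09 on the log2 scale (SE, 95% confidence interval -0.92 to -0.51), which is 61.0% of the control signal. Of 15964 genes tested, 0.796% differed by 1.5-fold or more in either direction in this comparison, and ARPC1A was the fifth from the lowest end. RNA of whole cultures was measured, so fewer cells that make a transcript and less of it in each cell cannot be told apart.

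**Figure D1:**
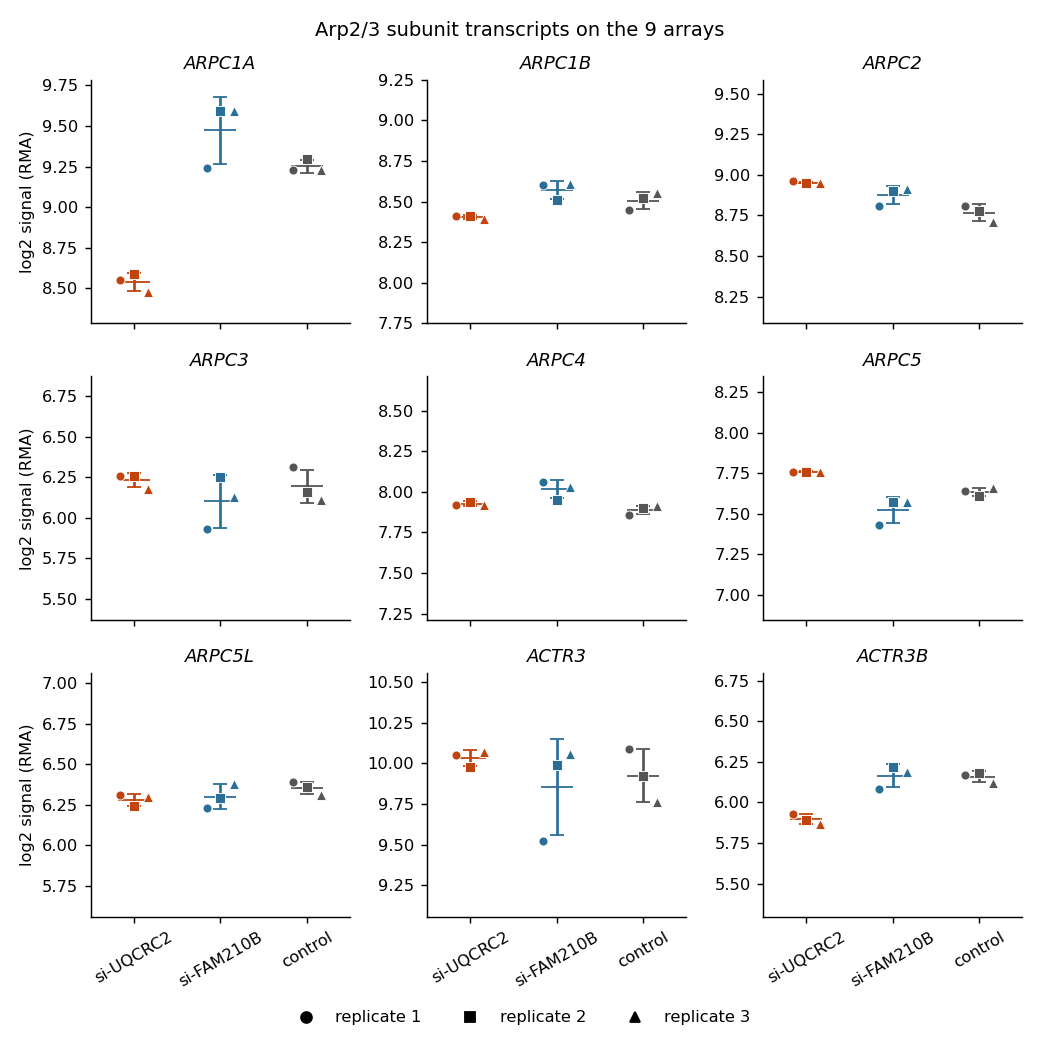
Log2 signal of the 9 Arp2/3 subunit transcripts on every array, with si-UQCRC2, si-FAM210B and control cells from left to right in each panel. Symbols are single arrays, the horizontal bar and whiskers are the group mean ± SD (n = 3), and every panel spans the same height on the log2 scale. ARPC1A lies at 8.48 to 8.59 in si-UQCRC2 cells and at 9.23 or above elsewhere, and ACTR3B is the other panel with the si-UQCRC2 arrays clearly lowest.

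The region just before the gene start is shown for ARPC1A and for ACTR3B, since they are the subunits called lower in si-UQCRC2 cells. Each sequence is the RefSeq window of GRCh38.p14 from 250 bases before to 50 bases after the start, on the plus strand of chromosome 7, at chr7:99325648-99325947 for ARPC1A and chr7:152759502-152759801 for ACTR3B. Capitals mark the binding letters of nuclear respiratory factor NRF1 in ARPC1A and TGACGTCA in ACTR3B, the cyclic AMP response element (CRE).
ARPC1A: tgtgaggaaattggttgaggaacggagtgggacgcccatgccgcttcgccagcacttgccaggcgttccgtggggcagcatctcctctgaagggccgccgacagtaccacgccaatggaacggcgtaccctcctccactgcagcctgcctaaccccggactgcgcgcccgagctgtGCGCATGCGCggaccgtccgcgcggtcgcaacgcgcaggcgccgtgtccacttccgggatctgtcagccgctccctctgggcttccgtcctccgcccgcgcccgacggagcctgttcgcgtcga
ACTR3B: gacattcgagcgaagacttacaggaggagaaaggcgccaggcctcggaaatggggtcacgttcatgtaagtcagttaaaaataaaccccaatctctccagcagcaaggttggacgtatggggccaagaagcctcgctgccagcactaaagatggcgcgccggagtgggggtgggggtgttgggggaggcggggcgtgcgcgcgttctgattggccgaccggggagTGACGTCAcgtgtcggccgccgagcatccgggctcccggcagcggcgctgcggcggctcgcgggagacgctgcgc
The NRF1 letters begin 74 bases before the ARPC1A start, and the same letters are in 435 of 35116 human promoter windows of this length (1.24%). Windows were found for 9 subunits, ACTR2 among them but not ARPC1B, and of these ARPC1A alone held the NRF1 letters. The CRE letters begin 25 bases before the ACTR3B start, are in 1.85% of all windows, and were in no other of these 9 subunits' windows. Of the same 9, ARPC1A alone held the ETS letters CCGGAAGT (4.14% of windows), and ACTR3 alone the YY1 letters (1.20%). The serum response factor CArG box, common before actin cytoskeleton genes, was in none of the 9 subunits' windows and in 1.29% of all. The CCAAT letters were in windows of ARPC1A, ACTR3B, ARPC5, ARPC5L and ACTR2 (34.6% of all windows), and the SP1 letters GGGCGG in those of 8 subunits (44.95% of all). Both strands were searched, neither capitalised motif overlaps another of these motifs, and a match describes the letters only.

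ARPC1B, the paralog of ARPC1A and its direct neighbour on chromosome 7, is set beside it next. ARPC1B read 8.41, 8.41 and 8.39 in si-UQCRC2 replicates, 8.60, 8.51 and 8.61 in si-FAM210B replicates and 8.45, 8.52 and 8.55 in control replicates. The si-UQCRC2 arrays lay just below the control arrays without overlap. The difference from control was -0.10 ± 0.06 in si-UQCRC2 cells (SE, 95% confidence interval -0.23 to 0.02). No other gene record stands between the pair in the RefSeq table. Before ARPC1A, the nearest genes tested were MYH16, KPNA7 and SMURF1, at 0.07, 0.23 and 0.12 in si-UQCRC2 cells relative to control, and beyond ARPC1B lay PDAP1 and BUD31, at -0.17 and -0.004. None of these neighbours was called in that comparison, and all 6, ARPC1B included, were within 0.23 of control.

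ACTR3B, a less studied copy of Arp3, was the other subunit called lower in si-UQCRC2 cells. ACTR3B read 5.93, 5.89 and 5.87 in si-UQCRC2 replicates, 6.08, 6.22 and 6.19 in si-FAM210B replicates and 6.17, 6.18 and 6.12 in control replicates. As with ARPC1A, the si-UQCRC2 arrays were below the other 6. The difference of ACTR3B from control was -0.26 ± 0.06 (SE, 95% confidence interval -0.39 to -0.13) in si-UQCRC2 cells, 83.5% of the control signal. It was called in the fit of all arrays, but not after median centring or quantile normalization, nor when any one of the 3 control arrays, any one of the 3 si-UQCRC2 arrays or si-FAM210B replicate 3 was left out. With a replicate block in the fit ACTR3B was not called either. The ACTR3B difference stayed between -0.28 and -0.25 in all of these settings. Probes for ACTR3B may also take up RNA of ACTR3 and of related pseudogenes, which was not tested.

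ACTR3, which encodes the main Arp3, had the widest spread among the si-FAM210B and the control arrays. ACTR3 read 10.05, 9.98 and 10.07 in si-UQCRC2 replicates, 9.52, 9.99 and 10.06 in si-FAM210B replicates and 10.09, 9.92 and 9.76 in control replicates. The groups overlapped, and the lowest value in each of the 2 other groups was on an array that stood apart over all genes, si-FAM210B replicate 1 and control replicate 3. ACTR3 differed from control by 0.11 ± 0.13 in si-UQCRC2 cells (SE, 95% confidence interval -0.19 to 0.41). ACTR3C, a short relative of Arp3 outside the chosen subunits, read 5.25 to 5.28 in si-UQCRC2, 5.45 to 5.49 in si-FAM210B and 5.40 to 5.46 in control cells. It was called between the siRNAs (si-UQCRC2 minus si-FAM210B -0.20 ± 0.05, SE).

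The scaffold subunits of ARPC1A were level or slightly higher in si-UQCRC2 cells. ARPC2, which with ARPC4 forms the core that grips the mother filament, read 8.96, 8.95 and 8.95 in si-UQCRC2 replicates, 8.81, 8.90 and 8.91 in si-FAM210B replicates and 8.81, 8.78 and 8.71 in control replicates. The si-UQCRC2 arrays were above both other groups, by 0.19 ± 0.06 over control (SE, 95% confidence interval 0.06 to 0.31). ARPC4 lay at 7.92 to 7.94 in si-UQCRC2, 7.95 to 8.06 in si-FAM210B and 7.86 to 7.91 in control cells, and its difference from control in si-UQCRC2 cells was 0.04 ± 0.05 (95% confidence interval -0.08 to 0.15). ARPC3, a small subunit beside Arp3, read 6.26, 6.26 and 6.18 in si-UQCRC2, 5.93, 6.25 and 6.13 in si-FAM210B and 6.31, 6.16 and 6.11 in control replicates. All groups overlapped for ARPC3, and its difference in si-UQCRC2 cells was 0.04 ± 0.09 (95% confidence interval -0.15 to 0.23).

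ARPC5, which tethers Arp2 to the rest of the complex, and its paralog ARPC5L are described side by side. The ARPC5 row used read 7.76 on each of the 3 si-UQCRC2 arrays, 7.43, 7.57 and 7.57 in si-FAM210B replicates and 7.64, 7.61 and 7.66 in control replicates. On this row the groups did not overlap, with si-UQCRC2 highest and si-FAM210B lowest. ARPC5 in si-UQCRC2 cells differed by 0.13 ± 0.06 from control and by 0.24 ± 0.06 from si-FAM210B cells (SE). A dimmer row of ARPC5 gave only 0.07 against control and 0.03 against si-FAM210B, and in si-FAM210B cells the 2 rows differed from control in opposite directions, by -0.11 on the row used and 0.04 on the dimmer one. ARPC5L read 6.24 to 6.31 in si-UQCRC2, 6.23 to 6.38 in si-FAM210B and 6.31 to 6.39 in control cells, with a difference of -0.07 ± 0.06 (95% confidence interval -0.20 to 0.06) in si-UQCRC2 cells.

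**Figure D2:**
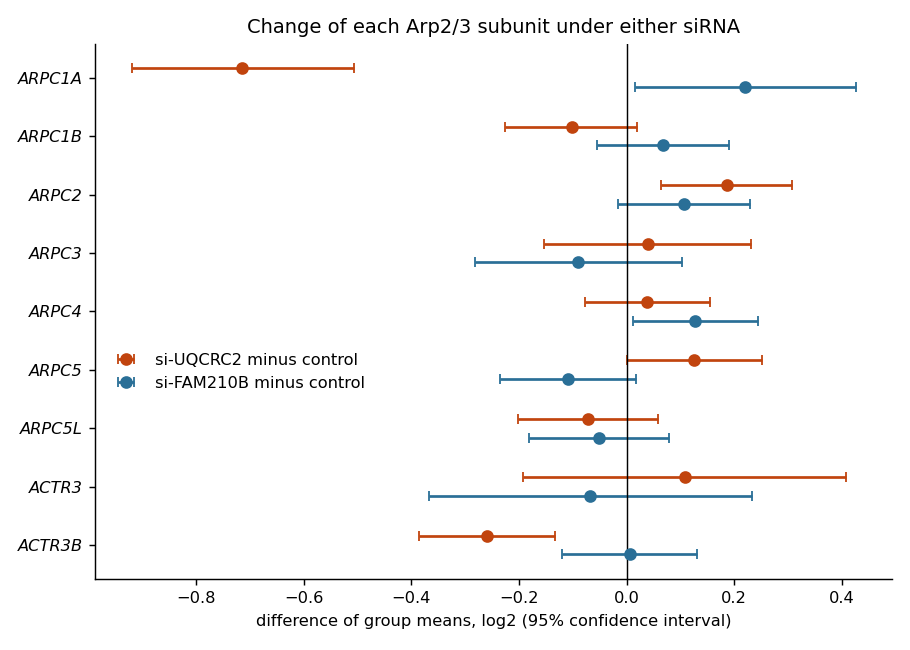
Difference of group means on the log2 scale for each Arp2/3 subunit, si-UQCRC2 minus control (upper point) and si-FAM210B minus control (lower point), with limma's 95% confidence interval (n = 3 arrays per group). ARPC1A at -0.71 is far from the other subunits, which lie between -0.26 and 0.19 in si-UQCRC2 cells, and both comparisons use the same control arrays.

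ARPC1A had the lowest difference of the family on every si-UQCRC2 array. In si-UQCRC2 cells relative to control, the 8 other subunits ranged from -0.26 to 0.19 with a median of 0.04, against a median of -0.01 over all genes tested. On single arrays, ARPC1A minus its control mean was -0.70, -0.66 and -0.78 in si-UQCRC2 replicates 1 to 3, while the median of the others was 0.05, 0.05 and 0.01. The lowest of the others was ACTR3B on each of these arrays, at -0.23, -0.27 and -0.28, and the highest was ARPC2, at 0.19, 0.19 and 0.18. The subunits called in that comparison (adjusted p under 0.05 over all genes) were ARPC1A and ACTR3B, 2 of 9, both lower, where 4.46% of all genes were called, 3.02% higher and 1.44% lower. Groups did not overlap for 3 subunits higher and 4 lower, where 29.2% of all genes did not overlap, 14.2% higher and 14.9% lower. Since ARPC1A's value in this comparison brought the family up, nothing is read from these counts. Without both deviating arrays the called subunits were 4 of 9, ARPC1A (-0.73) and ACTR3B (-0.28) lower, and ARPC2 (0.16) and ARPC5 (0.14) higher. Calls rose in that setting outside the family too, from 10 to 31 of 96 tested genes in the lists of actin assembly described below. Over all genes, calls ranged from 249 to 4145 over the 19 alternatives, and the share in that setting is not given here. Nothing is read from the 4 of 9 either.

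In si-FAM210B cells no Arp2/3 subunit was called against control, and ARPC1A was not lower. The count was 0 of 9 by limma, where 6.28% of all genes were called (2.78% higher, 3.5% lower). Before adjustment, ARPC1A and ARPC4 had a limma p under 0.05. The share of all genes below that unadjusted limit was not computed, so nothing is read from these 2. ARPC1A averaged 9.47 ± 0.21 in si-FAM210B cells and 9.25 ± 0.04 in control cells (SD, n = 3 each), a difference of 0.22 ± 0.09 (SE, limma adjusted p = 0.169, exact two-sided permutation p = 0.2, where 0.1 is the smallest that 3 against 3 arrays allow). Replicates 2 and 3 lay above every control array and replicate 1 within them. Without the array labelled si-FAM210B replicate 1 the ARPC1A difference was 0.34 (limma adjusted p = 0.00522), and without both deviating arrays it was 0.33 (limma adjusted p = 0.0044), where the adjusted p over all alternatives ranged between 0.00129 and 0.464.

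The other subunits in si-FAM210B cells differed from control by -0.11 to 0.13, with a median of -0.02 against 0.03 over all genes tested. ARPC4 was higher on all 3 si-FAM210B arrays than on any control array, by 0.13 ± 0.05 (SE, limma adjusted p = 0.161), as was ARPC2, by 0.11 ± 0.06 (limma adjusted p = 0.234). ARPC5 was lower on all 3 on the row used, by -0.11 ± 0.06 (limma adjusted p = 0.240), where its dimmer row gave 0.04 and the mean of both rows -0.04. These 3 of 9 subunits without overlap compare with 24% of all genes, 11.7% higher and 12.3% lower. For the rest the adjusted p by limma was 0.415 for ARPC1B (0.07), 0.485 for ARPC3 (-0.09), 0.557 for ARPC5L (-0.05), 0.738 for ACTR3 (-0.07) and 0.952 for ACTR3B (0.01). Without both deviating arrays ARPC2 was at 0.11 (limma adjusted p = 0.0647), ARPC4 at 0.12 (0.0864) and ARPC5 at -0.05 (0.336), and the median of the 8 other subunits was 0.03. ACTR3 then turned to 0.02, and ARPC1A alone was called. Of the 96 genes in the actin assembly lists, that setting called 33, against 9 in the fit of all arrays. The share of all genes called in that setting is not given here, so nothing is read from these counts. The 2 comparisons share their control arrays, so the values side by side are not independent.

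Set directly against each other, si-UQCRC2 and si-FAM210B cells differed most in ARPC1A among the subunits. The ARPC1A difference, si-UQCRC2 minus si-FAM210B, was -0.93 ± 0.09 (SE, 95% confidence interval -1.14 to -0.73), so that si-UQCRC2 cells had 52.3% of the si-FAM210B signal. ACTR3B differed by -0.27 ± 0.06 and ARPC5 by 0.24 ± 0.06, and these 3 of 9 were called, where 9.78% of all genes were (6.5% higher, 3.28% lower). Arrays did not overlap for 2 subunits higher and 4 lower, where 41.7% of all genes did not (19.7% higher, 22.1% lower). ARPC1B differed by -0.17 ± 0.06 and ARPC4 by -0.09 ± 0.05, both with si-UQCRC2 arrays below every si-FAM210B array. The call of ARPC5 was lost under 8 of 19 alternatives, among them each si-UQCRC2 array left out and the mean of both rows (0.13). The call of ACTR3B was lost under 7, among them each si-UQCRC2 array left out and both other normalizations. The ARPC1A difference was -1.05 without both deviating arrays. This comparison uses the same si-UQCRC2 arrays as the one by which the family was chosen and is a description.

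Among 1799 protein-coding genes with an SD of at least 0.2 over the 9 arrays, those with a pattern most like that of ARPC1A were MYH10, SCMH1, CAPZB, KIF1C and DNAJC11. They have the highest Pearson r, with r of 0.992, 0.974, 0.972, 0.966 and 0.964. The points are 9 arrays of 3 groups, so r mostly follows the group means and is a description. Of the subunits, whose own SD was below that limit, ACTR3B had an r of 0.969 with ARPC1A, above KIF1C and DNAJC11, and ARPC1B 0.824, and the others lay between -0.786 (ARPC5) and 0.412 (ARPC5L). MYH10, the heavy chain of a non-muscle myosin that pulls on actin filaments, read 7.43, 7.43 and 7.41 in si-UQCRC2 replicates, 8.17, 8.41 and 8.42 in si-FAM210B replicates and 8.21, 8.20 and 8.08 in control replicates. Its difference from control in si-UQCRC2 cells, -0.74 ± 0.08 (SE), was close to that of ARPC1A, and si-FAM210B replicate 1 was again at the control level. CAPZB, the beta subunit of the protein that caps the fast-growing end of actin filaments, read 7.95, 7.93 and 7.91 in si-UQCRC2, 8.51, 8.52 and 8.58 in si-FAM210B and 8.45, 8.41 and 8.47 in control replicates, a difference of -0.51 ± 0.05 in si-UQCRC2 cells. DNAJC11, a protein of the mitochondrial membrane, differed by -0.53 ± 0.07, the kinesin KIF1C by -0.36 ± 0.06 and the Polycomb protein SCMH1 by -0.33 ± 0.06.

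**Figure D3:**
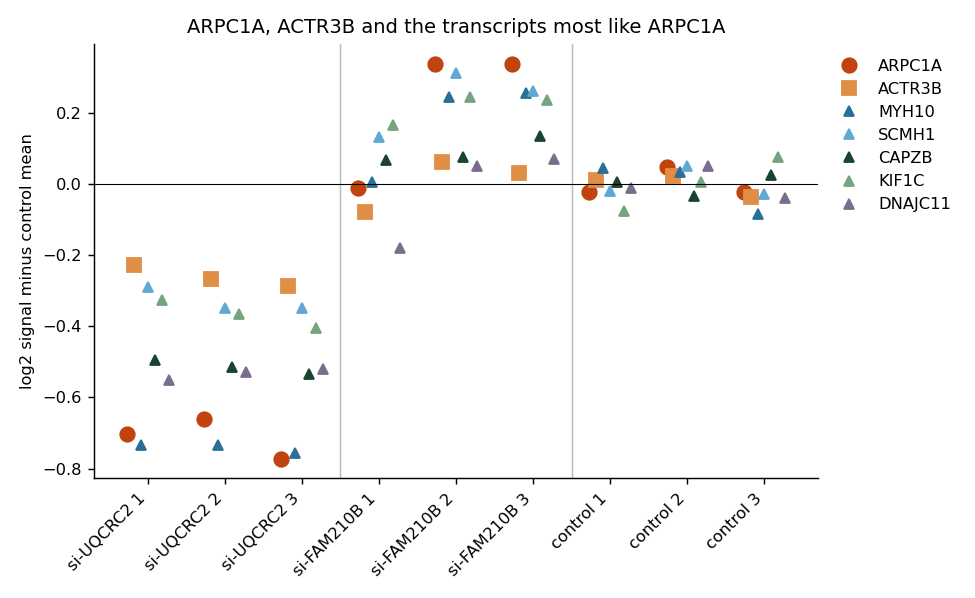
Log2 signal of ARPC1A, ACTR3B and the 5 transcripts with the highest Pearson r to ARPC1A among genes with an SD of at least 0.2, each minus its own control mean, on the 9 arrays. Each point is 1 array, points of an array are spread sideways for legibility, and grey lines part the groups. ARPC1A and MYH10 lie at -0.66 or lower on the 3 si-UQCRC2 arrays, and the other transcripts lie nearer to 0 there.

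Other genes of actin assembly were called in both directions. Of 96 genes tested in 9 lists of activators, partners, nucleators and filament factors, 8 were higher and 2 lower in si-UQCRC2 cells than in control (10.4% called). Over all genes 4.46% were called, 3.02% higher and 1.44% lower, so higher calls outnumbered lower ones there too. The 2 that fell were CAPZB and FMNL1, a formin that lengthens unbranched filaments, at 6.93, 6.93 and 6.90 in si-UQCRC2 and 7.20, 7.18 and 7.35 in control replicates (-0.32 ± 0.07, SE). Without si-FAM210B replicate 1 the count was 14 higher and 7 lower, and without si-UQCRC2 replicate 1 or 3 it was 1 higher and 1 lower. In si-FAM210B cells 8 were higher and 1 lower (9.38% called, against 6.28% of all genes). Without both deviating arrays the counts were 20 higher and 11 lower in si-UQCRC2 cells, and 22 higher and 11 lower in si-FAM210B cells. All 10 genes called in si-UQCRC2 cells and all 9 called in si-FAM210B cells kept their direction and call without those arrays, an alternative chosen after seeing the data, with values of -0.50 (CAPZB) to 0.47 (CYFIP2) and of -0.54 (ACTR6) to 0.73 (TMOD2). That was the only alternative in which these genes were followed singly, and it called more genes of the lists, so nothing is read from the kept calls. With only the 2 groups compared, 4 genes of the lists were called in si-FAM210B cells, all higher. Calls against control over all genes moved too, from 249 to 4145 in si-UQCRC2 and from 227 to 7018 in si-FAM210B cells. Shares of all genes are given for the fit of all arrays only, so nothing is read from list counts in other settings. Between the siRNAs, 5 genes of the lists were higher and 8 lower in si-UQCRC2 cells (13.5% called). Over all genes 9.78% were called there, 6.5% higher and 3.28% lower.

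CYFIP2, a subunit of the WAVE complex that passes the Rac signal to Arp2/3, was higher under both siRNAs. CYFIP2 read 8.59, 8.53 and 8.53 in si-UQCRC2, 8.39, 8.45 and 8.51 in si-FAM210B and 8.12, 8.03 and 8.10 in control replicates. Its difference from the shared control arrays was 0.47 ± 0.06 in si-UQCRC2 and 0.37 ± 0.06 in si-FAM210B cells (SE, limma adjusted p = 0.00584 in si-FAM210B cells). It was the only one of 6 tested WAVE complex partners called in either. Of 9 tested WASP and WAVE family genes and their WIP partners, none was called in si-UQCRC2 cells, and WIPF3 (0.27, limma adjusted p = 0.0404) and WIPF1 (0.27, limma adjusted p = 0.0436) rose in si-FAM210B cells. No gene was called among 6 tested genes of the WASH complex and its endosomal partners in either, where the median was -0.01 in si-UQCRC2 and -0.15 in si-FAM210B cells.

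The lists named for factors that oppose or steady branches gave single calls, and the part of each listed gene at branches was not tested. CORO2B, a coronin, a family of actin-binding proteins that includes inhibitors of Arp2/3, read 5.35, 5.30 and 5.36 in si-UQCRC2, 5.59, 5.42 and 5.64 in si-FAM210B and 4.92, 4.85 and 5.01 in control replicates. CORO2B was higher by 0.41 ± 0.07 in si-UQCRC2 and by 0.62 ± 0.07 in si-FAM210B cells (SE, limma adjusted p = 0.00116 in si-FAM210B), the only call in either among 13 genes listed as branch inhibitors and disassembly factors. Of 7 tested genes in the list named for branch stabilisers, CTTNBP2NL was higher in si-UQCRC2 cells by 0.32 ± 0.06 and none was called in si-FAM210B cells. CTTNBP2NL is in that list as a relative of the cortactin-binding protein CTTNBP2.

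The lists of unbranched nucleation, filament turnover, and actins and actin-related proteins held the remaining calls against control. Among 14 formins, FMN2 (0.38 ± 0.06), FHOD1 (0.28 ± 0.06) and 1 more were higher and FMNL1 lower in si-UQCRC2 cells, and none was called in si-FAM210B cells. Of 4 other nucleators, COBL rose in si-FAM210B cells by 0.27 ± 0.05 (SE, limma adjusted p = 0.0197). Of 26 capping and turnover factors, SSH2, a phosphatase that activates cofilin, was higher in si-UQCRC2 cells by 0.43 ± 0.07. In si-FAM210B cells TMOD2, which caps the slow-growing end, rose by 0.75 ± 0.07 (SE, limma adjusted p = 0.000522) and LIMK1, the kinase that inactivates cofilin, by 0.40 ± 0.06 (limma adjusted p = 0.00383). LIMK1 read 7.18, 7.19 and 7.17 in si-UQCRC2, 7.85, 7.75 and 7.79 in si-FAM210B and 7.35, 7.37 and 7.48 in control replicates, so the 3 groups did not overlap. ACTA2, smooth muscle actin, was higher in si-UQCRC2 cells by 0.27 ± 0.05 and in si-FAM210B cells by 0.47 ± 0.05 (limma adjusted p = 0.00079), and ACTR6, a nuclear actin-related protein, fell by 0.55 ± 0.14 in si-FAM210B cells (limma adjusted p = 0.0417). The ACTR6 call depended on the setting. After quantile normalization, without a filter on low values, with only the 2 groups compared or with a replicate block, no gene of the lists was called lower in si-FAM210B cells. The same held without si-FAM210B replicate 1 or 3, without control replicate 1 or 2, and without any one si-UQCRC2 array.

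**Figure D4:**
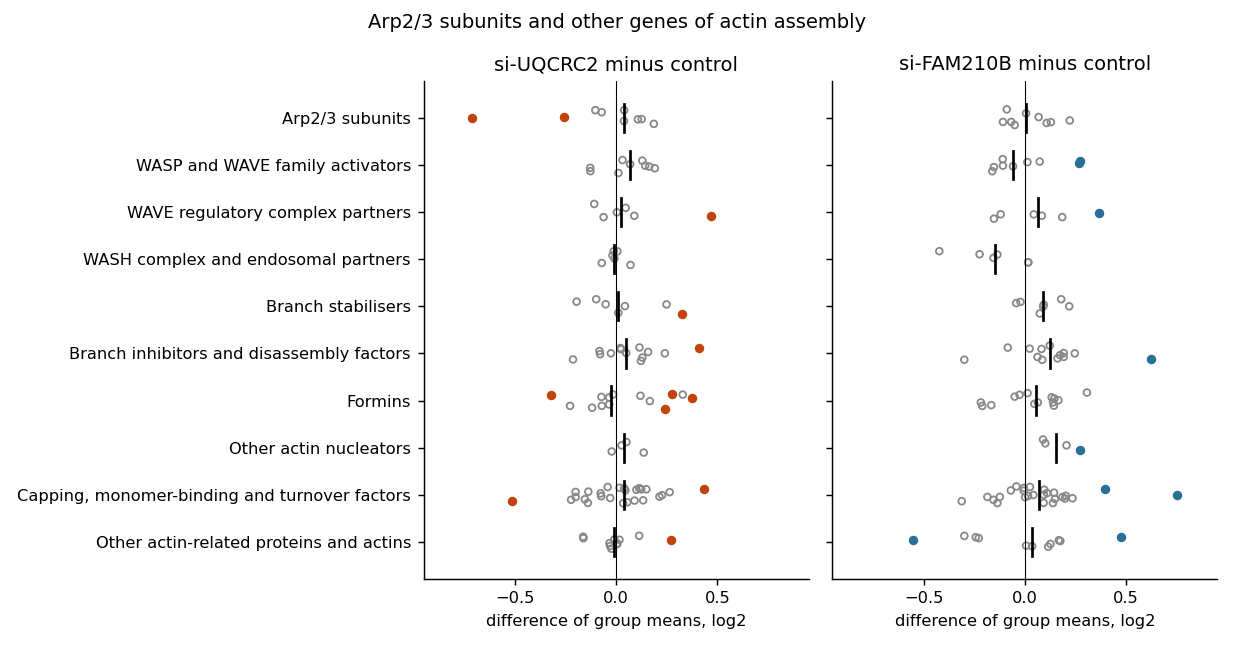
Difference of group means on the log2 scale for the 9 Arp2/3 subunits and for the tested genes of 9 lists of actin assembly, in si-UQCRC2 cells minus control (left) and si-FAM210B cells minus control (right). Filled points have a limma adjusted p under 0.05 over all genes, open points do not, and black bars are list medians. The filled points of the top row at -0.71 and -0.26 on the left are ARPC1A and ACTR3B, and the top row on the right has no filled point.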

How the data were processed

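Total RNA of 9 A549 samples was hybridised, after biotin labelling, to Affymetrix whole-transcript arrays, per the labels' protocols. The deposited values are log2 signals. The submitters' processing notes name RMA as the authors' method, with its version and annotation not given in the sources used here. Medians of the deposited arrays ran between 4.2 and 4.4, so they do not share 1 distribution. Arrays have no counting depth, so their number limits the precision.

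Of 67528 rows, 23781 had 1 gene symbol in the platform annotation, 1543 several and 42204 none. Symbols were updated through RefSeq records of GRCh38.p14 (21497 by Entrez identifier, 1974 by symbol, 306 by synonym, 4 kept). Of 22411 genes, 528 had several rows, and the row with the highest mean was used. The 15964 genes whose mean reached 4.25, the median of all rows, were tested with limma 3.58.1 (R 4.3.3, lmFit and eBayes, all 9 arrays in 1 fit) and adjusted over all of them by Benjamini-Hochberg. Errors of differences are limma's SE, and groups and replicate numbers come from the sample titles. The members and gene lists were chosen with earlier results of these data known.

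Named genes are the subunits, both targets, up to 3 called genes per list and comparison by size, the 5 transcripts most like ARPC1A, and its 3 nearest tested neighbours on each side. The lists cover WASP and WAVE activators, WAVE partners, WASH and endosomal partners, branch stabilisers, branch inhibitors, formins, other nucleators, capping and turnover factors, actins and actin-related proteins, and cell type markers, and a further list is not reported here. The fit was tested on simulated data. Unlike the real arrays, the simulated noise was independent between arrays and had the same spread in every group. That test therefore does not bear on the effect of the deviating arrays on the calls. Alternatives were other filters, normalizations, weights, variance priors and rows, 2-group fits, a replicate block and left-out arrays.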

Additional observations from a re-analysis of the deposited data

How the results depend on the processing

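As a description, since these values chose the family, ARPC1A in si-UQCRC2 cells ranged over 19 alternatives from -0.74 to -0.68 against control and from -1.05 to -0.85 against si-FAM210B cells. In si-FAM210B cells against control it stayed positive (0.15 to 0.34) and was called with array weights (0.304), without both deviating arrays (0.327) and without si-FAM210B replicate 1; leaving out single arrays gave 0.161 to 0.339. The cause was not tested. The count of called subunits in si-UQCRC2 cells against control, 2 of 9, was 1 after median centring and with the replicate block, 5 with array weights, 4 without both deviating arrays and 1 to 3 with single arrays left out; after quantile normalization the 2 were ARPC1A and ARPC2. In si-FAM210B cells the count of 0 was 1 after quantile normalization (ARPC2), 1 without both deviating arrays (ARPC1A), 3 with array weights and 0 to 1 with single arrays left out. Between the siRNAs the count of 3 was 1 with the replicate block, 5 with array weights and 1 to 4 with single arrays left out. Over all genes, calls in si-UQCRC2 cells against control were 249 to 1654 with single arrays left out and 342 to 4145 under the other alternatives. In si-FAM210B cells they were 306 to 1975 and 227 to 7018, and between the siRNAs 505 to 3280 and 798 to 7002. No share of all genes is set beside each count of subunits, so nothing is read from the subunit counts. Under the replicate block ACTR3B was at -0.259 against control and not called. Same-numbered arrays did not deviate together throughout (r of -0.016 to 0.069 between si-UQCRC2 and control, -0.584 to 0.512 between si-FAM210B and control). Deviations within groups of 3 arrays cannot settle whether the numbers pair the arrays.

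Small differences turned sign. In si-FAM210B cells against control, ACTR3 was 0.002 after quantile normalization, 0.088 with array weights and 0.023 without both deviating arrays, and -0.171 to 0.103 with single arrays left out. There ACTR3B was -0.019 after quantile normalization and -0.064 after median centring, and -0.020 to 0.046 with single arrays left out, ARPC1B was -0.002 after median centring, and ARPC5L 0.003 with array weights. Between the siRNAs, ACTR3 was -0.004 with array weights, and ARPC5L was 0.006 after quantile normalization and 0.063 after median centring, with -0.056 to 0.020 when single arrays were left out. Over all genes, calls in si-UQCRC2 cells against control numbered 712 and ranged from 249 to 4145, in si-FAM210B cells 1002 (227 to 7018) and between the siRNAs 1561 (505 to 7002). Actin assembly genes called, alternatives chosen after seeing the data, ranged from 2 to 40 in si-UQCRC2 and from 4 to 48 in si-FAM210B cells against control.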
